A study of Saccharomyces cerevisiae with 8 samples.

Results

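The FRE family of budding yeast holds the ferric and cupric reductases of the cell and their relatives. It was taken as 9 genes by symbol: FRE1 (YLR214W), FRE2 (YKL220C), FRE3 (YOR381W), FRE4 (YNR060W), FRE5 (YOR384W), FRE6 (YLL051C), FRE7 (YOL152W), FRE8 (YLR047C) and AIM14 (YGL160W). All 9 were on the array, each with a single probe set, and all passed the filter on mean signal over the 8 arrays. Thus 9 of the 5412 genes tested (5449 measured) are described here. FRE5 passed only through its low-iron cultures, as its high-iron mean of 5.34 lay under the filter's cut of 5.48. The data are MAS5 signals, a linear array intensity, from total RNA of 8 cultures of Saccharomyces cerevisiae strain DBY7286 on Affymetrix yeast arrays. Low-iron cultures (n = 4) were given 10 µM ferrous ammonium sulphate and high-iron cultures (n = 4) 300 µM. Both groups shared defined minimal medium with 1 µM copper sulphate, 1 mM Ferrozine (a chelator of ferrous iron), 25 mM MES at pH 6.1 and the supplements the strain's auxotrophies need, with shaking at 30 °C until an A600 of 0.5 was reached, roughly 18 h. The full genotype of the strain is not given in the sources used here. The cultures are described as independent, so the spread between them is that of separate cultures of 1 strain.

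Proteins of this family are membrane flavocytochromes that carry electrons from NADPH through FAD and haem to a metal on the other side of the membrane. At the cell surface they turn ferric iron, free or bound in siderophores, into ferrous iron, and cupric into cuprous copper. Ferrous iron then enters through the ferroxidase and permease pair encoded by FET3 and FTR1. Transcription of most surface reductase genes is known to be driven by the iron-responsive factors Aft1 and Aft2 when iron is scarce, and that of FRE1 and FRE7 by the copper-responsive factor Mac1 when copper is scarce.

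Of the 9 genes, 7 were higher in low iron, 1 (FRE7) was lower and 1 (AIM14) did not pass the test (limma, adjusted p under 0.05 over all tested genes). Over all 5412 genes 16.8% were called higher and 22.7% lower. The same 7 genes showed no overlap between the 4 low-iron and the 4 high-iron cultures, where 16.8% of all genes were higher without overlap. All 7 rose at least 2-fold, as did 1.37% of tested genes, and FRE5, FRE2, FRE3 and FRE1 rose at least 8-fold, as did 0.296%. FRE5 entered these counts through its low-iron cultures alone, its high-iron mean lying under the filter. The median log2 change of the family was 1.60, beside -0.02 over all tested genes. A culture was measured as a whole, so more RNA per cell and more cells that express a gene cannot be told apart.

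**Figure D1:**
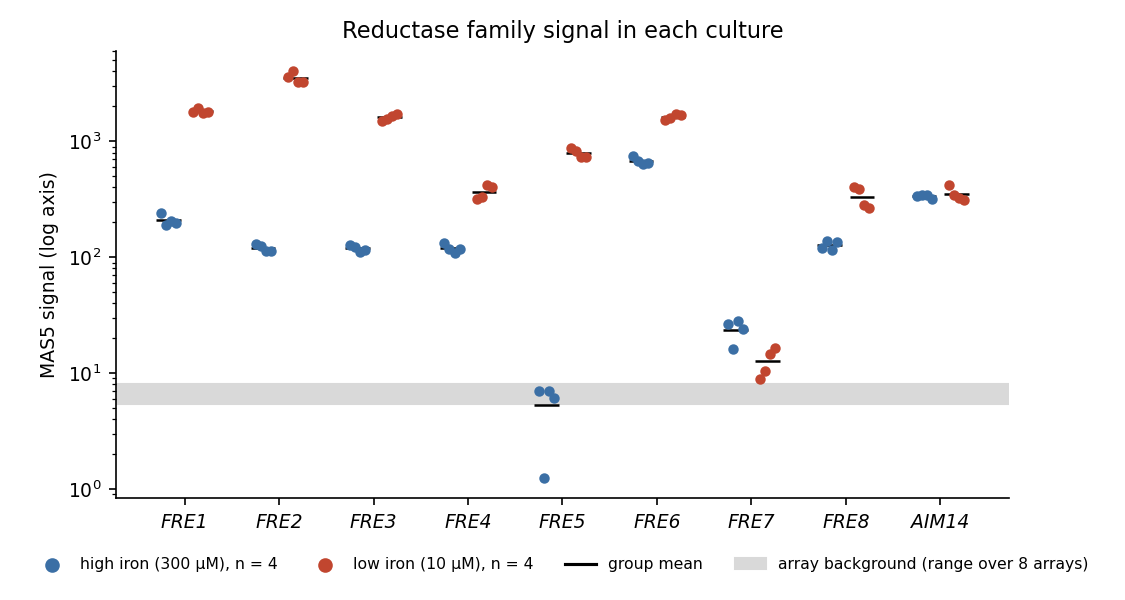
MAS5 signal (log axis) of the 9 genes in each culture, high iron in blue and low iron in red, with the mean of 4 cultures as a black line and the range of the 8 arrays' background in grey. The low-iron points lie above all high-iron points for 7 genes, and the high-iron points of FRE5 lie in or under the background band; levels of different genes are not comparable on this scale.

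The arrays had been brought to a common level by the authors, with a trimmed mean of 500.2 on each. Background, the 95th percentile of Schizosaccharomyces pombe probe sets on the same array, was 5.4 to 8.06 units, and the highest signal on an array lay between 6597 and 7706. Control probe sets for S. cerevisiae rRNA (16 in all) had a median signal of 2637 to 3745 in low iron and 3804 to 4322 in high iron, the lowest being low-iron cultures 1 and 2 (2684 and 2637). The 3' to 5' signal ratio of the ACT1 controls was 1.15 to 1.26 in low iron and 1.21 to 1.30 in high iron. The part of these differences in the results below was not tested, and values without low-iron cultures 1 and 2 are given where they matter.

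FRE1 and FRE2 encode the reductases that account for most ferric reductase activity at the cell surface. FRE1 read 242, 189, 207 and 198 in high-iron cultures 1 to 4 and 1793, 1948, 1747 and 1791 in low-iron cultures 1 to 4. The lowest low-iron culture stood 7.22 times above the highest high-iron one, and the low-iron cultures lay close together, with a coefficient of variation of 4.83%. The log2 change of FRE1 was 3.12 ± 0.0810 (SE; 95% interval 2.94 to 3.30; limma adjusted p = 2.25e-09), or 8.69-fold.

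For FRE2 the high-iron cultures gave 131, 124, 112 and 114 and the low-iron cultures 3593, 4030, 3248 and 3220. Here the gap between the groups was 24.5-fold, and low-iron culture 2 was the highest. Its log2 change was 4.86 ± 0.0858 (95% interval 4.67 to 5.05; limma adjusted p = 2.44e-10). Of the surface pair, FRE2 changed by more than FRE1, the log2 change of FRE1 minus that of FRE2 being -1.74 (95% interval -1.93 to -1.54; two-sided exact permutation test over cultures, adjusted p = 0.0312). This p is the smallest that 4 against 4 cultures and an adjustment over 36 pairs gave.

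FRE3 and FRE4 encode surface reductases that act on iron bound in siderophores, the small chelators that microbes secrete to capture iron. FRE3 went from 128, 123, 111 and 116 in the high-iron cultures to 1490, 1558, 1642 and 1730 in the low-iron ones. All low-iron cultures exceeded the highest high-iron culture by at least 11.7-fold, and cultures 3 and 4 were the highest. FRE3 changed by 3.74 ± 0.0713 on the log2 scale (95% interval 3.58 to 3.90; limma adjusted p = 2.67e-10), or 13.3-fold. FRE4, for which the known substrate is the siderophore rhodotorulic acid, read 133, 119, 109 and 119 in high iron and 318, 328, 418 and 403 in low iron. The groups did not overlap, but the gap was only 2.39-fold, and the log2 change was 1.60 ± 0.107 (adjusted p = 2.09e-06). The change of FRE3 exceeded that of FRE4 by 2.14 on the log2 scale (95% interval 1.97 to 2.31; exact permutation test, adjusted p = 0.0312), although both genes are assigned to siderophore iron.

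FRE5 encodes a relative found in mitochondrial fractions, whose substrate is not established. Its signals in high iron were 6.97, 1.25, 7.07 and 6.06, above the array's background in cultures 1, 3 and 4 and below it in culture 2. In low iron they were 881, 818, 737 and 738. High-iron culture 3, the highest of its group, lay near its array's background of 6.58, so the size of a ratio to it is poorly determined. The lowest low-iron culture was 104 times that culture, and this gap does not depend on the pseudocount. The fitted log2 change, 7.13 ± 0.354 (95% interval 6.35 to 7.92; limma adjusted p = 2.15e-07), does: on the log2(signal + 64) scale it was 3.63. With 1 added to each signal FRE5 ranked first of the 5412 genes by its rise and FRE2 ranked 4, while with 64 added FRE5 ranked 4 and FRE2 ranked 2. The change of FRE2 minus that of FRE5 accordingly turned from -2.28 to 0.65. It was -0.56 with 16 added and -1.77 with values raised to background. The order of these genes thus depends on the pseudocount.

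FRE6 and FRE8 encode reductases or relatives inside the cell, and both rose. FRE6 encodes the reductase of the vacuolar membrane, which makes stored iron and copper ready for export to the cytosol. It read 744, 669, 638 and 652 in high iron and 1526, 1575, 1723 and 1670 in low iron, a gap of 2.05-fold between the groups. The log2 change was 1.26 ± 0.0661 (limma adjusted p = 2.96e-07), or 2.40-fold. FRE8, an intracellular relative with a poorly defined substrate, read 120, 138, 115 and 135 in high iron and 402, 384, 282 and 267 in low iron. The low-iron cultures of FRE8 spread more widely, with a coefficient of variation of 20.7%, yet the lowest was 1.94 times the highest high-iron value. Its log2 change was 1.37 ± 0.138 (adjusted p = 3.96e-05), and 1.11 without low-iron cultures 1 and 2.

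FRE7, a surface reductase gene known for its induction in copper-starved cells, was the exception in direction. Its signals were low in all cultures, at 26.31, 16, 28.24 and 24.27 in high iron and 8.98, 10.53, 14.74 and 16.39 in low iron, all of them above background. High-iron culture 2 (16) lay just below low-iron culture 4 (16.39), so the groups overlapped. FRE7 fell by 0.86 ± 0.229 on the log2 scale (95% interval -1.37 to -0.35; limma adjusted p = 0.0134). Without low-iron cultures 1 and 2, in which it was lowest, the change was -0.55 and did not pass (adjusted p = 0.0786), nor did it under quantile normalization (-0.52, adjusted p = 0.0858), and on the log2(signal + 64) scale it was -0.19.

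AIM14, also called Yno1, encodes a relative that acts as an NADPH oxidase of the endoplasmic reticulum rather than as a metal reductase. It read 335, 347, 343 and 315 in high iron and 418, 345, 327 and 312 in low iron. Low-iron culture 1 was the highest of all 8 and the other 3 fell among or just below the high-iron cultures. The log2 change was 0.06 (95% interval -0.15 to 0.26; limma adjusted p = 0.651), which limits any difference of AIM14 at this precision to that interval, and without low-iron cultures 1 and 2 it was -0.07.

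**Figure D2:**
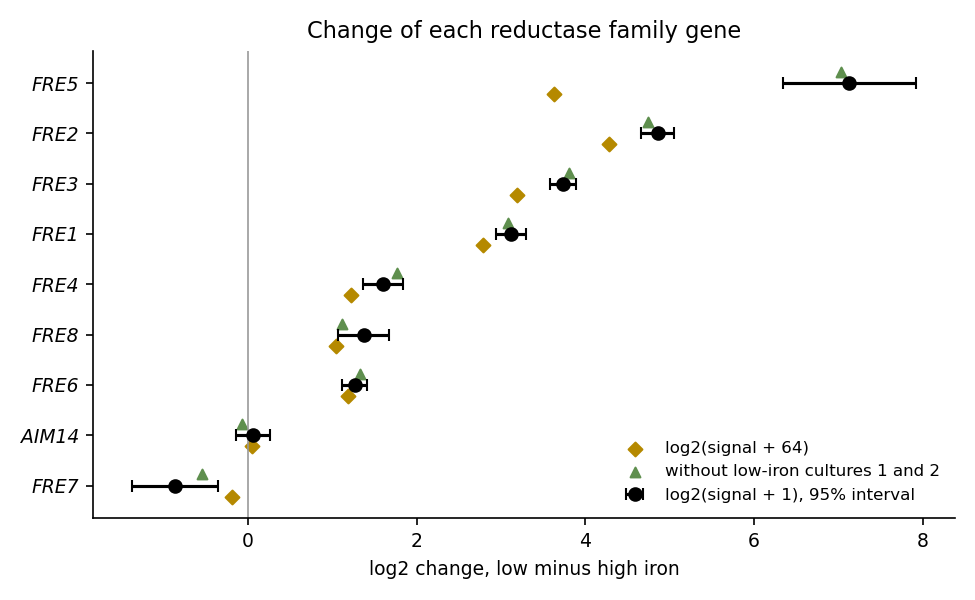
Log2 change (low minus high iron) of the 9 genes, with black points and 95% intervals for log2(signal + 1), diamonds for log2(signal + 64) and triangles without low-iron cultures 1 and 2. The 7 genes at the top stay above 0 on every scale shown, FRE5 moves from 7.13 to 3.63 and FRE7 from -0.86 to -0.19 with the larger pseudocount.

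By log2 change the genes came in the order FRE5, FRE2, FRE3, FRE1, FRE4, FRE8, FRE6, AIM14 and FRE7. On the log2(signal + 1) scale, 33 of the 36 pairs passed a test for unequal change. These were two-sided exact permutation tests of the log2 ratio within each array (adjusted p = 0.0312 for each of the 33, the smallest p before adjustment being 0.0286). As the 33 share the same p, it does not grade them. Pairs of a gene that rose with FRE7 or AIM14 largely restate the rises given above. The 3 remaining pairs were FRE4 and FRE8, whose changes differed by 0.23 (95% interval -0.41 to 0.87; exact permutation test, adjusted p = 0.441), FRE6 and FRE8, which differed by -0.11 (-0.61 to 0.40; adjusted p = 0.600), and FRE7 and AIM14, which differed by -0.92 (-1.73 to -0.10; adjusted p = 0.0605). FRE3 and FRE1 are close neighbours in this order, but the change of FRE1 minus that of FRE3 was -0.62 (95% interval -0.85 to -0.38). FRE4 changed by 0.34 more than FRE6, but by 0.03 more with a pseudocount of 64 (exact permutation test, adjusted p = 0.543). The difference between FRE2 and FRE5, also among the 33, reversed in sign to 0.65 with that pseudocount.

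Among the low-iron cultures the family did not vary as a block. FRE8, FRE2, FRE5, AIM14 and, by a margin of under 2 units, FRE1 were highest in cultures 1 and 2. FRE3, FRE4, FRE6 and FRE7 were lowest in those same cultures. Relative to its low-iron mean, FRE8 stood at 0.29 and 0.23 in cultures 1 and 2 and at -0.22 and -0.30 in cultures 3 and 4 (log2 scale), and FRE4 at -0.20 and -0.15 against 0.20 and 0.15. These were also the cultures with the lowest rRNA control signals, and the part of that difference was not tested. Leaving out cultures 1 and 2 moved FRE4 from 1.60 to 1.77 and FRE8 from 1.37 to 1.11, and each of the 7 rises passed without them.

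**Figure D3:**
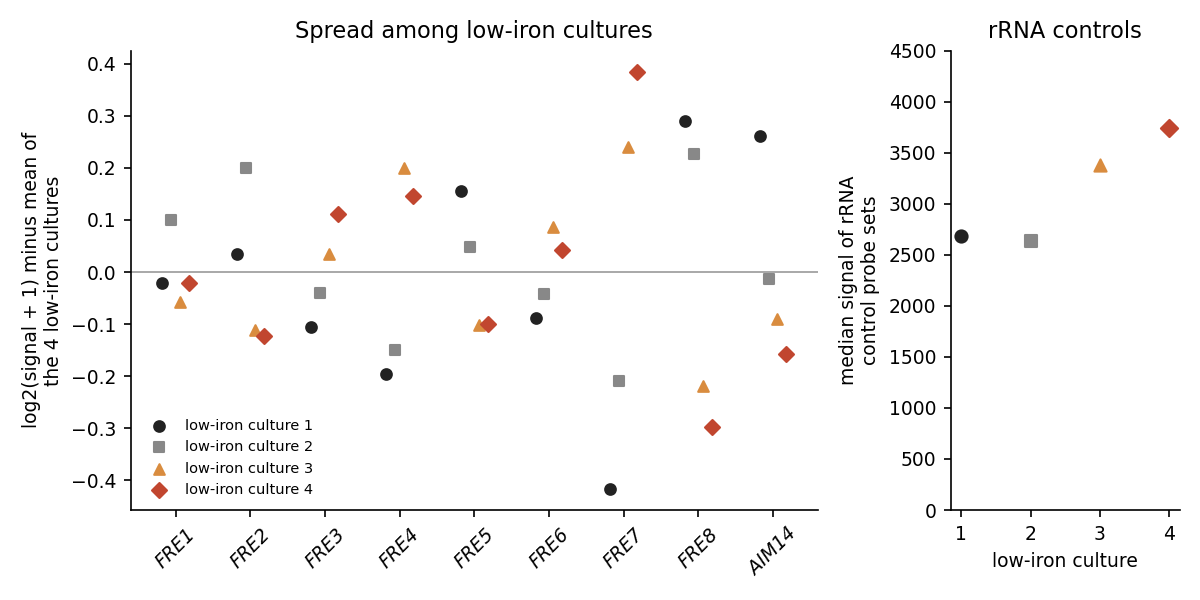
Left, log2(signal + 1) of each gene in the 4 low-iron cultures minus their mean; right, the rRNA controls in the same cultures as the median of 16 probe sets. Cultures 1 and 2 (black and grey) lie above cultures 3 and 4 for FRE8 and below them for FRE3, FRE4, FRE6 and FRE7, and they have the lowest rRNA control signals, 2684 and 2637.

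FRE3 and FRE5 lie close together on chromosome XV, with YOR381W-A, FIT2 and FIT3 between them in the RefSeq gene order. All 5 genes of the stretch rose in low iron. FIT2 and FIT3 encode cell wall mannoproteins that retain siderophore iron, and FIT3, next to FRE5, read 1415, 812, 861 and 855 in high iron and 5358, 5427, 4917 and 5587 in low iron. Its log2 change was 2.47 ± 0.152 (limma adjusted p = 1.10e-06), a value that may be compressed because its low-iron signals approach the brightest on the array. YOR381W-A, a small gene of unassigned role next to FRE3, was dim, at 5.82, 2.95, 4.23 and 3.53 in high iron and 10.33, 12.04, 25.25 and 18.66 in low iron, and was above background in 1 high-iron culture and all 4 low-iron ones (log2 change 1.73, adjusted p = 0.00104). With most high-iron cultures at background this change is poorly determined, and over the alternatives it ranged from 0.24 to 2.18.

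The flanking genes gave no single direction. RDR1, a repressor of drug resistance genes that precedes FRE3, had a log2 change of 0.18 that did not pass (adjusted p = 0.0872), although it passed under quantile normalization and median centring. ATF1, an alcohol acetyltransferase gene further out on that side, rose by 0.48 (adjusted p = 7.17e-04). YOR385W, which follows FRE5, went from 1097, 1050, 1128 and 1106 in high iron to 427, 457, 582 and 549 in low iron. On the log2 scale it fell by 1.13 (limma adjusted p = 1.21e-05), opposite to its neighbour FRE5. No gene next to a family member overlaps it in the annotation, and probe positions and strands were not analysed here.

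**Figure D4:**
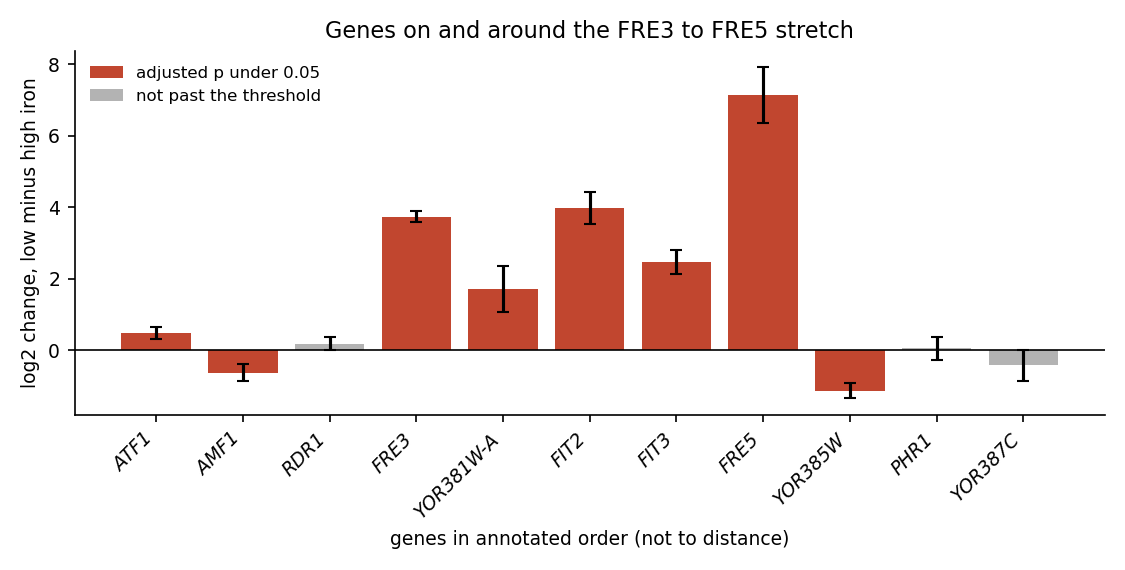
Log2 change (low minus high iron) with 95% intervals for the genes from FRE3 to FRE5 and 3 annotated genes on either side, in chromosome order and not to distance; red bars passed the test. Bars of the 5 genes from FRE3 to FRE5 stand at 1.73 to 7.13 and those of the flanking genes between -1.13 and 0.48; the bars of YOR381W-A and FRE5, at or near background in high iron, depend on the pseudocount and came to 0.24 and 3.63 with 64 added.

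The reductases work with partners, and these were taken as lists chosen with earlier results of these data known. Of 7 genes for ferrous iron uptake 5 rose and 1 fell (median log2 change 0.66), where 16.8% of all tested genes rose and 22.7% fell. CCC2, the copper pump that loads the ferroxidase Fet3, rose by 2.81, FTR1 by 1.66 and FET3 by 1.33. The low-iron signals of FTR1 and FET3 (5653 and 4930) lie near the brightest of the array, so these changes may be compressed. FET4, a low-affinity iron and copper transporter, rose by 0.66 and SMF1, a manganese transporter that can carry iron, fell by 0.29. All 7 siderophore genes rose (median 3.42), among them ARN1 and ARN2, transporters of siderophore iron, by 3.37 and 3.42. Those values lie between the changes of the surface reductase genes FRE1 (3.12) and FRE3 (3.74), and that of ENB1, a transporter of the siderophore enterobactin, was 1.69, beside 1.60 for FRE4. The rest of the list, FIT1, FIT2, SIT1 and FIT3, rose by 5.72, 3.97, 3.50 and 2.47. The low-iron signals of ARN1, ARN2 and ENB1 (4123, 4599 and 5371) approach the top of the range. So do those of FIT1, FIT2, SIT1 and FIT3 (5569, 6026, 5220 and 5322). The changes of all 7 siderophore genes may therefore be compressed. The same may hold for other bright genes described here. Among them are FRE2, FTH1, COT1 and ZWF1, with low-iron means of 3523, 3982, 4285 and 4910. The level at which signals compress was not tested.

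Several vacuolar genes rose along with FRE6. FET5 and FTH1, the vacuolar ferroxidase and permease that use ferrous iron, rose by 1.18 and 1.03, and SMF3, a vacuolar iron exporter, by 0.73, beside 1.26 for FRE6. CTR2, the vacuolar copper exporter, read 887 ± 83.6 in high iron and 2121 ± 176 in low iron (mean ± SD of 4 cultures), a rise of 1.26 (limma adjusted p = 1.57e-06). COT1, a vacuolar zinc and cobalt transporter, rose by 1.28 and CCC1, which moves iron into the vacuole, fell by 1.77. Of the 5 genes of the vacuolar iron list, 4 rose and 1 fell (median 1.03), where 16.8% of all tested genes rose and 22.7% fell. CTR2 is counted with the copper genes below and not in that list.

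Among 9 iron regulators 4 rose and 2 fell (median 0.12), where 16.8% of all tested genes rose and 22.7% fell. AFT1 read 473 ± 10.6 in high iron and 933 ± 129 in low iron, a rise of 0.97 (limma adjusted p = 2.59e-05), and AFT2 had a log2 change of 0.12 that did not pass (adjusted p = 0.292). Of 10 copper genes 4 rose and 2 fell (median 0.12). CTR1, the main copper importer and like FRE1 and FRE7 a target of Mac1, rose by 0.64, and the importer gene CTR3, also under Mac1, fell by 0.42. MAC1 itself was at the threshold, with a log2 change of -0.17 (adjusted p = 0.0496), and its call was lost in 15 of 19 alternatives. FRE1, CTR1, CTR3 and FRE7 thus stood at 3.12, 0.64, -0.42 and -0.86 with copper supplied at 1 µM throughout.

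Haem is built into each reductase, and of 8 haem synthesis genes 6 fell and 0 rose (median -0.46), with HEM15 (ferrochelatase) and HEM13 lower by 1.71 and 1.60 on the log2 scale. No haem gene was called higher in any of the 19 alternatives, and at an unadjusted p under 0.05 by limma the count was also 0. Of 17 genes for flavin synthesis and NADPH supply 6 rose and 4 fell (median 0.03). The share that fell lay near the 22.7% of all tested genes, of which 16.8% rose. ZWF1, glucose-6-phosphate dehydrogenase and the entry to the main NADPH pathway, read 2694 ± 88.7 in high iron and 4910 ± 371 in low iron, a rise of 0.86 (limma adjusted p = 1.70e-06). FAD1, which makes FAD, had a log2 change of -0.17 (adjusted p = 0.0340) and lost its call in 8 of 19 alternatives.

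**Figure D5:**
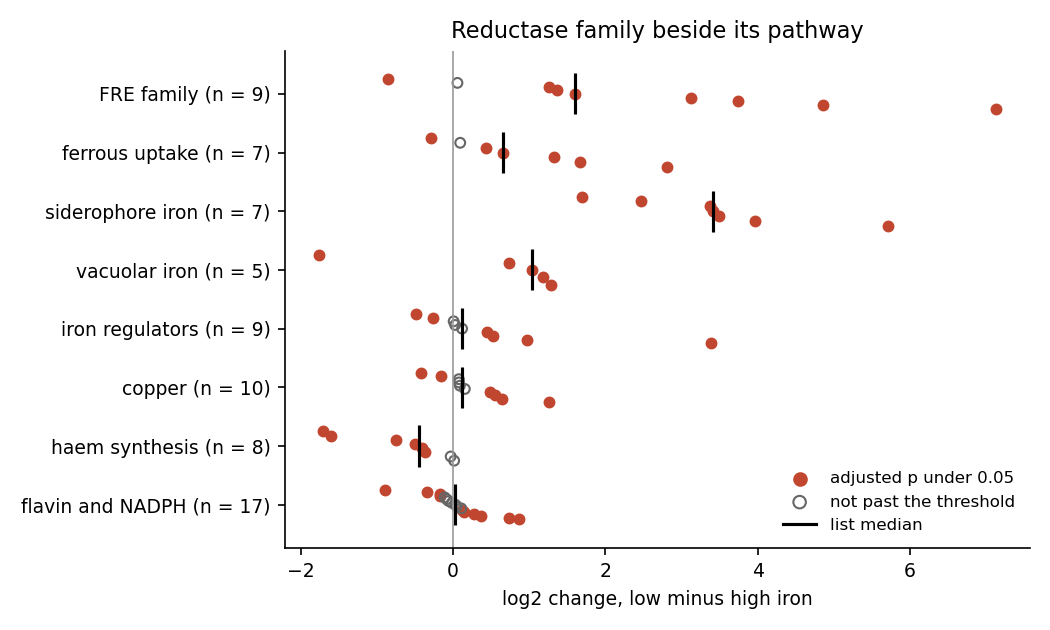
Log2 change (low minus high iron) of each gene of the FRE family and of 7 lists from its pathway, filled where past the test, with the list median as a black line. The family ranges from -0.86 to 7.13 with a median of 1.60, all siderophore genes lie above 1.6, and no haem gene lies above 0.02.

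For each family member the 3 genes of most similar pattern over the 8 cultures were listed by Pearson correlation of log2(signal + 1) among 5412 genes. The 8 cultures fall into 2 groups, so the coefficient is given only to rank genes. For FRE1 these were ARN2, ARN1 and TIS11 (r = 0.999 each), the last an mRNA-binding protein of the iron response. FRE2 was matched by ARN1, FMP23 and HMX1 (0.999 each), of which HMX1 is haem oxygenase. FRE3 had FRE2, TIS11 and FRE1, while FRE4 had FRE6, FRE3 and YHR131C, and FRE6 had FRE4, FRE3 and GTO3. FRE4 and FRE6 were thus each other's nearest gene (r = 0.996). The nearest to FRE5 were BIO5, SLM3 and MTM1 (0.994 each), with FRE1 little lower at 0.992. The high-iron signals of FRE5 lie near or below background, so this ranking is poorly determined. The nearest to FRE8 were IRS4, GGC1 and RAX1 (0.993 to 0.994). The nearest genes of FRE7 were PRS5, CTL1 and PLP2 (0.970, 0.958 and 0.957), and those of AIM14 were MET3, MUS81 and PCL7 (0.977, 0.975 and 0.964).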

How the data were processed

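The authors deposited a linear intensity for each probe set on each array, made with MAS5 per the submitters' processing notes. Its settings are not stated there. Total RNA was extracted with Trizol and labelled with biotin, per the labels' protocols. No further scaling was applied. Of 10928 probe sets 5498 matched a gene of the RefSeq table (assembly R64, used for names and gene order) through the platform table's gene identifiers. The brightest probe set of each gene was kept. Genes with a mean signal above 5.48, the 95th percentile of 1746 S. pombe probe sets, were tested. The mean was taken over all 8 arrays. FRE5 and YOR381W-A, with high-iron means of 5.34 and 4.13, therefore passed only through their low-iron cultures. Signals were taken as log2(signal + 1) and compared with limma 3.58.1 (R 4.3.3, two-sided moderated test with an intensity trend). P-values had Benjamini-Hochberg adjustment over 5412 genes. The procedure was also run on simulated data with noise drawn independently for each gene. That run does not cover shifts that many genes share on an array. Fold changes are on the log2(signal + 1) scale and understate changes of dim genes. Changes of 2 members were compared by exact permutation of cultures (scipy 1.17.1) with 95% intervals from the pooled variance. Figures used matplotlib 3.10.9 in Python 3.11.15.

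The members and lists were chosen with earlier results of these data known. Named genes are the members, genes of the lists, immediate neighbours and the 3 nearest patterns of each member. ATF1, AMF1, PHR1 and YOR387C, plotted as flanks of the FRE3 to FRE5 stretch, lie outside that rule. Alternatives were quantile normalization, median centring, pseudocounts of 16 and 64, no filter, a filter at the 99th percentile (9.21), values raised to background, no trend, array weights, the mean of probe sets, each array left out, and low-iron arrays 1 and 2 left out. The number of arrays, 4 per group, limits the precision.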

Additional observations from a re-analysis of the deposited data

How the results depend on the processing

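The 7 rises kept their direction and passed the test in all 19 alternatives, with FRE5 ranging from 3.63 to 7.30 on the log2 scale, FRE2 from 4.28 to 4.90 and FRE8 from 1.05 to 1.47. Some alternatives could alter only the adjusted p of a member and not its log2 change. These are the 2 filter settings, no trend and, as each member has a single probe set, the mean of probe sets. Raising values to background could alter the log2 change of FRE5 alone, the only member with a signal below background. FRE7 kept its direction and lost its call under quantile normalization (-0.52) and without low-iron arrays 1 and 2 (-0.55), which leaves 0 members lower under both. The difference between FRE2 and FRE5 reversed to 0.65 with a pseudocount of 64; adding 64 shrinks changes of dim genes by construction. The count of differing pairs was 33 under the 4 other scalings and floors tried and 32 with a pseudocount of 64, and was 0 with any array left out and without low-iron arrays 1 and 2, where the smallest possible p (0.0571 and 0.133) cannot pass. Copper genes called lower numbered 1 under quantile normalization, median centring, pseudocounts of 16 and 64, no filter, values raised to background and array weights, and 1 with each single array left out. Flavin and NADPH genes called higher numbered 3 without low-iron arrays 1 and 2; those called lower numbered 2 under quantile normalization and median centring, and 1 to 3 with single arrays left out. Over all genes quantile normalization gave 1181 higher and 1091 lower and median centring 1141 and 1068, against 907 and 1226. Of 99 other named genes 80 kept their call in every alternative. No paired analysis was possible because the labels give no replicate numbers shared between the groups. FRE7, and FRE5 in high iron, lie close to background, which limits the precision of their changes.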

Other observations

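Among genes next to family members elsewhere in the genome, several rose with the reductase beside them. YLR046C, a predicted membrane protein gene next to FRE8, read 682 ± 78.9 in low iron and 290 ± 11.7 in high iron (mean ± SD of 4 cultures) and rose by 1.22 on the log2 scale (limma adjusted p = 2.47e-06), beside 1.37 for FRE8. AQY2, an aquaporin gene next to FRE6, read 413 ± 21.2 in low iron and 218 ± 20.0 in high iron and rose by 0.92 (adjusted p = 1.54e-05), beside 1.26 for FRE6. CRR1, a spore wall glycosidase gene next to FRE1, and MCH2, a transporter gene next to FRE2, were dim and rose by 0.53 and 0.66. YIP5, a membrane traffic gene next to AIM14, rose by 0.39 while AIM14 itself did not pass.

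Other neighbours fell or did not pass. GRE2, a stress-induced reductase gene next to FRE7, read 594 ± 49.7 in low iron and 939.8 ± 57.7 in high iron and fell by 0.66 (limma adjusted p = 7.51e-05), and MNT4, a mannosyltransferase gene next to FRE4, fell by 0.35. COF1 (cofilin) next to FRE6, RPS0B (a ribosomal protein) next to FRE8 and CDC123 next to FRE1 had log2 changes of 0.03, 0.11 and -0.19 that did not pass. In all, 17 of the 18 neighbours were tested, of which 7 rose and 3 fell with a median log2 change of 0.11, where 16.8% of all tested genes rose and 22.7% fell.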
